A study of Mus musculus with 24 samples.

Results

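Primary muscle cells of mice answered a substrate-poor medium in both maternal diets, and the comparison here is whether the size of that answer differed between them. For 1 gene and 1 culture number, the response is the log2 array signal in limited medium minus that in standard medium. All 24 arrays of the series entered, as 12 responses: 6 from cultures of control offspring and 6 from cultures of undernourished offspring. Responses were taken for 22180 genes, each read from the array's brightest probe set that carries exactly 1 gene symbol. No gene's response differed between the maternal diets at the threshold used, an adjusted p under 0.05. Nearly all genes called in either diet had the same sign in the other. Folding and degradation genes of the endoplasmic reticulum (ER) and targets of the factor ATF4 had mostly larger response values in undernourished cultures, and no member passed the test of the difference. These list differences were smaller without undernourished cultures 9 and 12, whose limited and standard arrays did not deviate together from their group means.

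The cells were isolated from the quadriceps of ICR mice, an outbred stock, and grown on Matrigel with fibroblast growth factor. Dams of the undernourished group ate 50% of what controls of the same gestational day ate, starting on day 12.5. All dams fed freely after delivery, and litters of either group were set to 8 pups. The control standard and undernourished standard groups (6 arrays each) were differentiated in low glucose DMEM with 5.5 mM glucose and 2% serum. The control limited and undernourished limited groups (6 arrays each) spent the night in DMEM with glucose lowered to 0.5 mM, glutamine at 1 mM, carnitine at 0.5 mM and serum at 1%, so the media differed in several substrates together. The sources used here do not give the age or sex of the offspring, or whether cultures with different numbers came from different animals. The p-values therefore measure only how these samples spread, and some of that spread may be technical. Markers of differentiated myotubes averaged 12.21 ± 0.10 (log2 signal, SD, n = 6) in control standard and 12.14 ± 0.12 in undernourished standard arrays. The median over all genes was 6.02. Group means lay above it for markers of satellite cells and myoblasts (7.80 to 7.89), smooth muscle and pericytes (6.76 to 6.86) and glia (6.35 to 6.45). Fibroblast markers averaged 5.86 in undernourished limited arrays and 6.14 to 6.22 in the other groups. Group means for macrophages, endothelial cells, tenocytes and adipocytes lay below that median.

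When proteins misfold in the ER, sensors in its membrane start the unfolded protein response, which raises chaperones, oxidoreductases and the machinery that exports misfolded proteins for degradation. One branch runs through the factor ATF4, which also answers amino acid shortage and raises transporters, aminoacyl-tRNA synthetases and the factor CHOP (encoded by Ddit3). Low glucose limits the sugar chains of proteins made in the ER, and it lowers Txnip, a target of the glucose-sensing factor MondoA. Undernutrition before birth is studied in muscle for its lasting effect on how the tissue handles fuel.

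Promoters of 3 genes among or near the strongest responders are shown because they hold an ER stress element, the sequence through which the unfolded protein response is known to act. Each is the 250 bases before the RefSeq gene start (build GRCm38.p6), 5′ to 3′ along the gene's strand, with the element in capitals. The long form was searched on both strands as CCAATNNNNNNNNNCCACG. A short form, known by name as the ER stress element II, was searched on both strands too and shares the last 5 letters with the long form.
Creld2, chr15:88819396-88819645, plus strand: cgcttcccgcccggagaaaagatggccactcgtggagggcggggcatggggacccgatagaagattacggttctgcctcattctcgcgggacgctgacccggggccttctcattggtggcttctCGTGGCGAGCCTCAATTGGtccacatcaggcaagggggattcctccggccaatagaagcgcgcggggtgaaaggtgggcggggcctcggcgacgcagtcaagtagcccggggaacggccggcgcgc
Herpud1, chr8:94386179-94386428, plus strand: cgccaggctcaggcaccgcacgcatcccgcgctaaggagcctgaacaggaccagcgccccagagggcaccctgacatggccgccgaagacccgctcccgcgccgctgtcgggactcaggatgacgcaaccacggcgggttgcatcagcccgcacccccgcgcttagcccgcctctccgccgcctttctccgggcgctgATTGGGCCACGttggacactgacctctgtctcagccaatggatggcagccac
Hspa5, chr2:34771840-34772089, plus strand: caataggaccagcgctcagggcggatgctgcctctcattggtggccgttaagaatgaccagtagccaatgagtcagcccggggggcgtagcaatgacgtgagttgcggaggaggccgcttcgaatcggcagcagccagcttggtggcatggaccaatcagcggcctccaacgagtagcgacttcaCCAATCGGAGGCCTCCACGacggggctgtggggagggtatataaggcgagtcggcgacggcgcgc
In Creld2 the long form lay on the opposite strand, 126 to 108 bases before the start. Hspa5 held it 65 to 47 bases before the start, and Herpud1 held the short form 52 to 42 bases before the start. Of 19 promoters of 17 ER chaperone genes, 8 (42.1%) held the long form, against 37 of 32851 promoters (0.113%) in the whole table. Both the element and the list were taken from what is known of this response, so the excess is no result of these data. The 8 genes were Calr, Canx, Creld2, Dnajc3, Ero1b, Hsp90b1, Hspa5 and Pdia6, and their response differences between diets ran from 0.12 (Canx) to 0.74 (Ero1b) on the log2 scale. Sdf2l1, the gene with the largest rise, held neither form in this window and had a difference of 0.63, against 0.13 in Creld2. Of the 19 measured ER chaperones, 18 had a positive difference. Whether the element goes with the difference between diets was not tested. An ATF4 core, TGATGNAAT, stood in 3 of 35 promoters of ATF4 and CHOP targets (8.57%; Fgf21, Gars and Nupr1) and in 0.816% of all promoters. These matches describe letters in a window and are not evidence of binding.

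Array medians ran from 5.601 to 5.805 and correlations between arrays from 0.954 to 0.990. In 10 of the 12 culture numbers, the limited and standard array deviated from their group means together (correlation over 0.1). In undernourished cultures 9 and 12 they did not (-0.05 and 0.02). Values without these cultures are given for many of the printed differences that they moved by over 1.5 times. Control culture 16 and undernourished culture 20, which carried high collagen and glial transcripts, were also left out as a pair. Fibroblast and glial marker means reached 7.70 and 8.05 in single arrays, against group medians of 5.55 to 5.89 and 6.11 to 6.22. In such bulk RNA, fewer cells of a type and less RNA per cell cannot be told apart.

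The difference between diets was tested with limma on the 12 responses, with Benjamini-Hochberg adjustment over all genes. No gene of 22180 (0%) had an adjusted p under 0.05. The smallest adjusted p was 0.669, for the olfactory receptor gene Olfr1282. At an unadjusted p under 0.05 there were 1147 genes (5.17%), of which 513 (2.31%) had the larger response value in undernourished cultures and 634 (2.86%) the smaller. All 6 undernourished responses lay above all 6 control responses in 26 genes (0.117%) and below them in 27 (0.122%). The 95% interval of the difference lay within 0.5 of zero on the log2 scale for 16352 genes (73.7%) and within 1 for 21853 (98.5%), so differences of that size are outside the interval for those genes. For the strongest responders the intervals were wider, as given below. The difference was at least 0.5 in either direction in 267 genes and at least 1 in 6.

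In control cultures 551 genes (2.48%) changed with the medium, 320 up (1.44%) and 231 down (1.04%). In undernourished cultures 1007 genes changed (4.54%), 458 up (2.06%) and 549 down (2.48%). These counts do not show a stronger response in undernourished cultures: 269 genes were called in both diets, which is 48.8% of the control calls and 26.7% of the undernourished calls, and no difference passed. The order of the counts turned without cultures 9 and 12, at 897 genes in control and 478 in undernourished cultures. It also turned without undernourished culture 4, at 530 and 412. Both settings leave fewer undernourished than control cultures, which lowers the precision in the undernourished group. Without control culture 5, 15, 11 or 10 the order stayed and the gap was wider, at 110 to 125 genes in control and 866 to 980 in undernourished cultures. Of the 551 control calls, 537 had the same sign in undernourished cultures, and of the 1007 undernourished calls 968 had the same sign in control cultures. Over all genes the sign was shared by 64.9%. Genes called as rising in control cultures had a median response of 0.48 there and 0.34 in undernourished cultures. Those called in undernourished cultures had 0.49 there and 0.33 in control cultures, so each diet's calls were larger in the diet that chose them.

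Over both diets together 2597 genes changed (11.7%), 1345 up (6.06%) and 1252 down (5.64%), and 2594 of them had the same sign in each diet. Choosing genes by their mean over both diets nearly fixes that shared sign, so it is no separate result on the diets. Among the 2597 genes, 199 (7.66%) had an unadjusted p of the difference under 0.05. The genes that rose had medians of 0.32 in control and 0.32 in undernourished cultures, and 49.9% of them had the larger response in undernourished cultures. The genes that fell had medians of -0.30 and -0.35, with 64.0% larger in size in undernourished cultures. This split moved with scaling and with the cultures used. Without cultures 9 and 12, 58.6% of the risen and 68.9% of the fallen genes were larger in undernourished cultures. With each array centred on its median, 36.6% of the risen and 76.0% of the fallen genes were larger in undernourished cultures, and the share of all genes with a positive difference went from 47.4% to 33.2%, with a median difference of -0.07 in place of -0.01. Quantile normalizing the values again gave 42.0%.

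**Figure D1:**
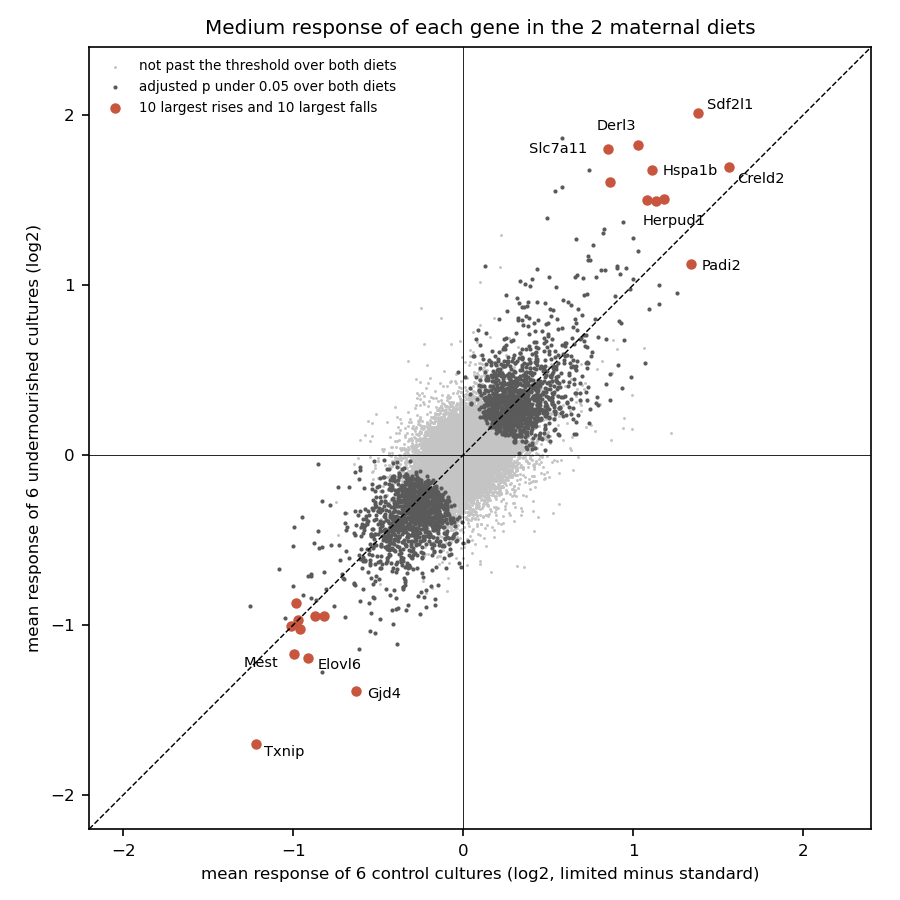
Mean response of each gene (log2, limited minus standard medium) in 6 control cultures (x axis) against 6 undernourished cultures (y axis), where the dashed line marks equal responses, dark points are the 2597 genes past the threshold over both diets and large points the 10 largest rises and falls. The dark points lie in the lower left and upper right, which their choice by the mean over both diets favours. Sdf2l1 reached 1.38 in control and 2.01 in undernourished cultures.

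The size of the response per culture did not separate the diets. The median absolute response over all genes was 0.183 ± 0.014 in control and 0.184 ± 0.022 in undernourished cultures (SD, n = 6, two-sided exact permutation p = 0.968, adjusted p = 0.968 over 2 measures). The slope of a culture's response on the mean of the other cultures was 0.742 ± 0.233 and 0.792 ± 0.409 (exact permutation p = 0.790, adjusted p = 0.968). Slopes ran from 0.398 (culture 16) to 0.995 (culture 5) among control and from 0.276 (culture 9) to 1.31 (culture 4) among undernourished cultures, so the ranges overlapped over their whole control part. Between pairs of cultures, responses over all genes correlated at a median of 0.241 within control, 0.209 within undernourished and 0.233 across diets.

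Sdf2l1, part of the ER chaperone machinery, had the largest mean rise. Its response was lowest at 0.40, with a median of 1.27 and a highest value of 2.55 in control cultures, and 0.46, 2.48 and 2.82 in undernourished cultures. It was higher in limited medium in 12 of 12 cultures, and the diets overlapped over nearly the whole range. The rise was 2.61-fold in control (adjusted p = 0.0207) and 4.02-fold in undernourished cultures (adjusted p = 0.00162), and the difference was 0.63 ± 0.40 (SE, 95% interval -0.22 to 1.48, adjusted p = 0.913), or 0.39 without cultures 9 and 12.
Creld2, a stress-induced ER protein, had means close to each other in the 2 diets. Its responses were 0.80, 1.57 and 2.21 (lowest, median, highest) in control and 0.16, 1.91 and 2.72 in undernourished cultures. Its mean level went from 8.90 ± 0.25 to 10.47 ± 0.47 in control and from 9.04 ± 0.21 to 10.74 ± 0.80 in undernourished arrays (SD, n = 6), and the difference of responses was 0.13 ± 0.34 (interval -0.60 to 0.86). This sign turned without cultures 9 and 12, at -0.03, and with the array number in the titles as a covariate, at -0.05.
Herpud1, which recruits the ER degradation complex, rose 2.12-fold in control and 2.83-fold in undernourished cultures (adjusted p = 0.00979 and 0.00103). Control responses ran from 0.42 to 2.02 and undernourished ones from 0.86 to 2.06, so the highest values of both diets were alike and the lowest differed. The difference was 0.42 ± 0.26 (interval -0.13 to 0.97), or 0.26 without cultures 9 and 12.

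Of the other 7 largest rises, Padi2, an arginine deiminase, had the smaller value in undernourished cultures (1.34 and 1.12, difference -0.22), and the sign turned without cultures 9 and 12. The other 6 had the larger value there. Ero1b, an ER oxidase that makes disulfide bonds, had control responses of 0.18, 1.04 and 1.37 (lowest, median, highest) and undernourished responses of 0.32, 2.04 and 2.44. In 4 of 6 undernourished cultures Ero1b lay above every control culture, and in cultures 8 and 20 it lay within the control range. Its difference, 0.74 ± 0.34, had an interval of 0.02 to 1.46 but an adjusted p of 0.913, and was 0.39 without cultures 9 and 12. Derl3, a channel subunit of ER-associated degradation, had means of 1.03 and 1.82 (difference 0.79, interval -0.03 to 1.62). Ddit3, the factor CHOP, rose in both diets (1.13 and 1.49, interval of the difference -0.39 to 1.11), and so did Rbm15b, an RNA-binding protein (1.18 and 1.51). The cystine importer Slc7a11 spread widely, from -0.66 to 2.20 in control and from 0.03 to 4.26 in undernourished cultures. Hspa1b, an inducible heat shock chaperone, ran from -1.18 to 3.20 and from -0.01 to 3.17, and its near-identical copy Hspa1a makes its signal uncertain. Several of these differences rested on few cultures. Without cultures 9 and 12 they were 0.08 for Slc7a11 (0.45 without culture 9 alone, against 0.95 with all), 0.05 for Ddit3 (against 0.36), 0.11 for Rbm15b (against 0.33) and -0.05 for Hspa1b (against 0.56). Leaving out single cultures moved Ddit3 between 0.17 (control culture 11) and 0.64 (control culture 24), Hspa1b between 0.11 (control culture 16) and 0.98 (control culture 24), and Rbm15b between 0.20 (culture 9) and 0.63 (culture 20).

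Txnip, an inhibitor of thioredoxin and of glucose uptake, had the largest fall. Its responses were -2.33, -1.08 and -0.23 (lowest, median, highest) in control and -3.06, -1.36 and -0.95 in undernourished cultures. It was lower in limited medium in all 12 cultures, and 4 of the 6 undernourished values lay inside the control range, with cultures 9 and 1 below it. Txnip fell by 1.22 in control and by 1.70 in undernourished cultures, a difference of -0.48 ± 0.36 (interval -1.24 to 0.28). The difference was -0.21 without culture 9, which gave the lowest value, and -0.28 without control culture 11, which gave the highest.
Arrdc3, an arrestin-domain relative of Txnip, fell in each diet (-0.97 and -0.97, interval of the difference -0.55 to 0.56). Gadd45g, a growth arrest gene, also gave close means (-1.01 and -1.003), with one undernourished culture apart at 0.13. Gca, a calcium-binding protein, fell by 0.96 and by 1.02. Nsdhl, a cholesterol synthesis enzyme, fell by 0.87 and by 0.95, and the amino acid transporter gene Slc38a6 by 0.82 and by 0.95. The myelin protein gene Pmp22 fell in each diet as well (-0.98 and -0.87).
Elovl6, a fatty acid elongase, fell by 0.92 and by 1.19, and its difference of -0.28 was -0.06 without culture 4. The imprinted gene Mest had means of -0.996 and -1.17, neither past the threshold, and responses of -1.93 to 0.33 in control and -2.89 to -0.02 in undernourished cultures, so its comparison is imprecise (SE of the difference 0.48). Gjd4, a connexin of muscle cells, was the only one of the 10 falls whose interval left out zero. Its responses ran from -1.34 to 0.32 in control and from -2.97 to -0.66 in undernourished cultures, with a difference of -0.76 ± 0.34 (interval -1.48 to -0.05, adjusted p = 0.913). Culture 9 gave the value of -2.97, and the difference was -0.45 without it, -0.55 without cultures 9 and 12 and -0.29 with the array number as a covariate.

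**Figure D2:**
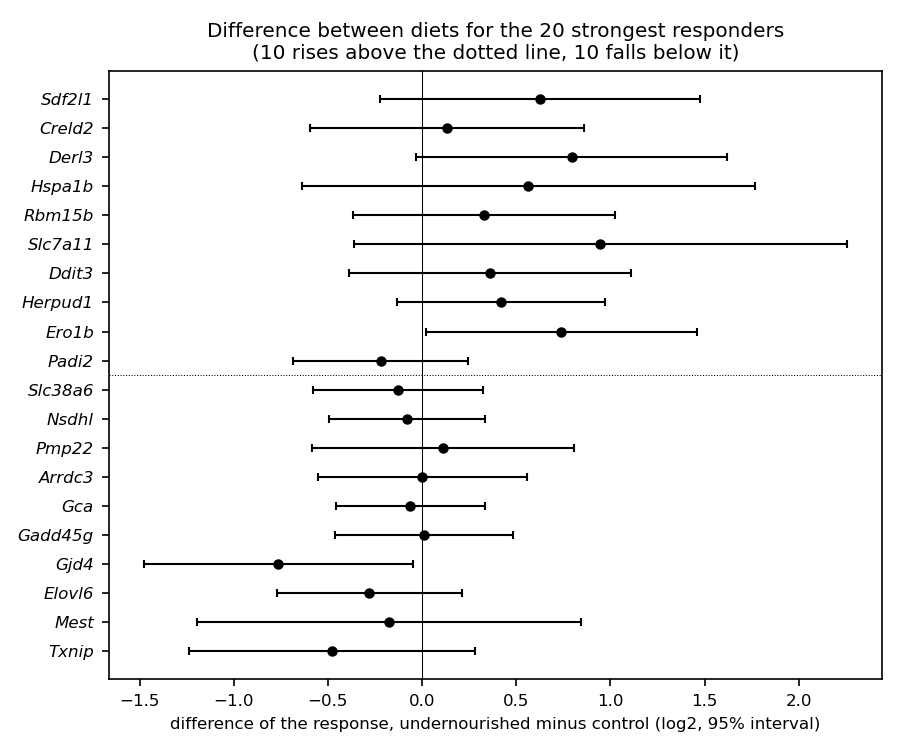
Difference of the response between diets (points, log2, undernourished minus control) with 95% intervals from the limma fit for the 10 largest rises (above the dotted line) and 10 largest falls. The intervals of Ero1b and Gjd4 leave out zero, and no adjusted p passed the threshold.

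The 19 measured folding chaperones and oxidoreductases of the ER rose in more members in undernourished than in control cultures, but no member differed between diets. In control cultures 2 rose, Sdf2l1 and Creld2, in undernourished cultures 14 and over both diets 15. Here and below, such counts stand against 1.44%, 2.06% and 6.06% of all genes that rose, in the same order. Of all genes, 1.04%, 2.48% and 5.64% fell. The counts come from a test within each diet, so they do not measure the difference between diets. The median response of the members was 0.56 in control and 0.81 in undernourished cultures. In 18 of 19 the undernourished response was the larger value, with a median difference of 0.25 against -0.01 over all genes, and 1 member, Ero1b, had an unadjusted p under 0.05. The mean of the list per culture was 0.06, 0.55 and 1.07 (lowest, median, highest) in control and -0.14, 1.17 and 1.38 in undernourished cultures. In 4 undernourished cultures (1, 4, 9 and 12) it exceeded every control culture, and in culture 20 it was the lowest of all 12. Hspa5, the main ER chaperone BiP, had means of 0.70 in control (adjusted p = 0.0644) and 1.04 in undernourished cultures (adjusted p = 0.00712), with responses of 0.11 to 1.24 and -0.12 to 1.52. Hyou1, its nucleotide exchange factor, had 0.82 and 1.31 (difference 0.49 ± 0.34). Dnajc10, a disulfide reductase, was the exception to the direction, with a difference of -0.17. Without cultures 9 and 12 the list's median difference was 0.05, with 15 of 19 members larger, and with the array number as a covariate it was 0.13. It was 0.38 without cultures 16 and 20, 0.48 without culture 20, 0.14 without culture 16 and 0.15 without culture 9, with 18 of 19 larger in each. Members named beside those of the naming rule here and below were chosen after their values were seen.

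ER-associated degradation, which returns misfolded proteins to the cytosol, followed the same order. Of 15 measured members 2 rose in control (Herpud1 and the ubiquitin ligase Syvn1) and 6 in undernourished cultures, and 14 had the larger value in undernourished cultures (median difference 0.23). The list mean per culture ran from 0.00 to 0.77 in control and from 0.01 to 1.07 in undernourished cultures. Syvn1 rose by 0.94 and 1.37 (difference 0.43, interval -0.14 to 1.00). The list also held Niban1, whose part in this machinery was not examined here, with changes of 0.03 and -0.05. The median difference was 0.06 without cultures 9 and 12, 0.14 without culture 9 and 0.36 without culture 20.
Among 12 regulators of the unfolded protein response, 2 rose in undernourished cultures, the factor Xbp1 and the phosphatase subunit Ppp1r15a, and none in control cultures. Ern1, the ER stress sensor IRE1, had the smallest p of the list. Its responses were -0.36, -0.17 and 0.19 in control and -0.16, 0.34 and 0.85 in undernourished cultures, so 4 undernourished cultures lay above all controls. The difference was 0.45 ± 0.15 (interval 0.13 to 0.78, unadjusted p = 0.00917, adjusted p = 0.913).

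Targets of ATF4 and CHOP showed the largest list difference, again with no member past the threshold. Of 37 measured members 1 rose in control (Ddit3) and 15 in undernourished cultures. In 35 of 37 the undernourished value was larger, with a median difference of 0.39. The control cultures divided on this list: means were 1.02 and 1.01 in cultures 5 and 24, 0.28 and 0.19 in cultures 15 and 10, and -0.36 and -0.42 in cultures 16 and 11. Undernourished means ran from 0.15 (culture 8) to 1.64 (culture 9), and 5 of 6 lay within the control range. Trib3, a pseudokinase induced by this branch, had control responses of -0.55 to 1.98 and undernourished responses of 0.56 to 2.72, with a difference of 0.93 ± 0.43 (interval 0.02 to 1.85, unadjusted p = 0.0456). Slc7a3, a cationic amino acid transporter, had the largest t of the list, with means of 0.10 and 1.02 (interval of the difference 0.05 to 1.78), neither past the threshold. Culture 9 gave its highest response, 2.98, and without that culture the difference was 0.52 in place of 0.92. Without cultures 9 and 12 it was 0.44. Atf3, a stress-induced transcription factor, had means of 0.44 and 1.10 and passed the test in undernourished cultures, and its difference had an interval of -0.05 to 1.37. Stc2, a secreted glycoprotein, showed means of 0.03 and -0.03. The list's median difference was 0.17 without cultures 9 and 12, 0.23 without control culture 11, 0.26 without culture 9 and 0.14 with the array number as a covariate, with 30 to 35 of 37 members larger.
The cytosolic heat shock list showed no such order, with 7 of 14 members larger in undernourished cultures and a median difference of -0.01. Hspa1a had the list's largest t (difference 1.28, interval 0.17 to 2.39, or 0.80 without control culture 16 and 0.73 without cultures 9 and 12) and Hspe1, the mitochondrial co-chaperonin, the smallest (-0.69).

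**Figure D3:**
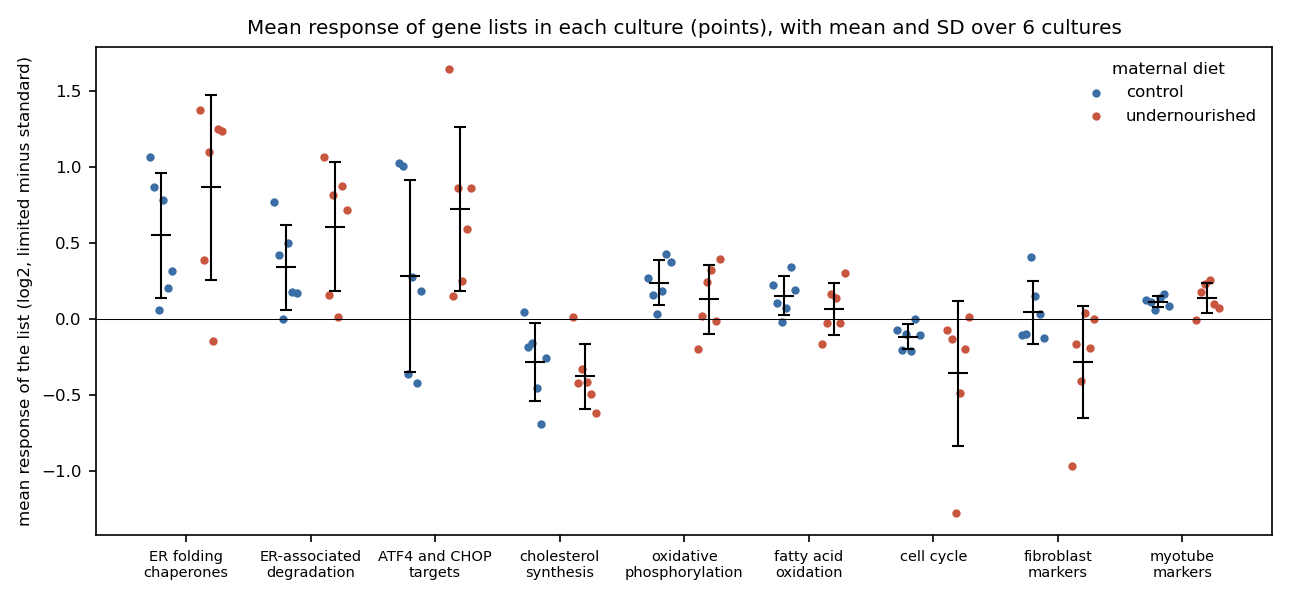
Mean response of 9 gene lists in each of 12 cultures (points, log2, limited minus standard medium), with the mean and SD over 6 control (blue) and 6 undernourished (red) cultures. The ranges of the diets overlap in every list, and culture 4 stands low for the cell cycle (-1.27) and culture 9 for fibroblast markers (-0.96).

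Several genes of lipid synthesis fell, and no member differed between diets. Of 17 genes of cholesterol synthesis and uptake, 4 fell in control and 8 in undernourished cultures, and over both diets 11 fell and 1 rose. The list mean per culture was -0.28 ± 0.26 in control and -0.38 ± 0.21 in undernourished cultures (SD, n = 6), and the median difference was -0.10, or -0.04 to -0.19 with single cultures left out (without 5 and without 11). Sqle, the squalene epoxidase, had the lowest t, with means of -0.39 and -0.67 (interval of the difference -0.64 to 0.07, difference -0.28 and -0.16 without culture 20). Msmo1, a sterol demethylase, fell by 0.52 and by 0.64. Of 13 genes of fatty acid synthesis and desaturation 1 fell in control and 4 in undernourished cultures, and over both diets 6 fell and 2 rose (median difference -0.07, from -0.12 without culture 11 to -0.01 without culture 12). Fads1, a desaturase, had means of -0.40 and -0.69, and its lowest undernourished value, -1.27 in culture 4, stood apart. Without that culture its difference was -0.18 in place of -0.29. Acss2, which activates acetate, had means of -0.27 and 0.06, neither past the threshold.

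Genes of oxidative metabolism had slightly smaller values in undernourished cultures. Of 50 nuclear genes of oxidative phosphorylation 3 rose in control (Atp5e, Cox4i1 and Cyc1), 1 in undernourished cultures (Cox6a2) and 17 over both diets. In 43 of 50 the undernourished response was smaller, with a median difference of -0.11 and no member at an unadjusted p under 0.05. The list mean was 0.24 ± 0.15 in control and 0.13 ± 0.23 in undernourished cultures, a gap smaller than the SD in the undernourished cultures. Atp5e, an ATP synthase subunit, had responses of 0.20, 0.59 and 0.96 in control and -0.22, 0.20 and 0.92 in undernourished cultures (interval of the difference -0.72 to 0.03). The median difference was -0.04 with the array number as a covariate, and 29 of 50 members were then smaller. It was -0.19 without cultures 16 and 20 (49 of 50 smaller), -0.17 without culture 16, -0.19 without culture 12, -0.07 without culture 11 and -0.06 without culture 9.
In the tricarboxylic acid cycle 21 of 27 members were smaller in undernourished cultures (median difference -0.07, from -0.11 without culture 16 to -0.01 without culture 11) and 2 (Idh2 and Idh3a) had an unadjusted p under 0.05, near the 5.17% of all genes. Idh2, the mitochondrial isocitrate dehydrogenase, rose in control cultures by 0.42 (adjusted p = 0.0288), with values from 0.10 to 0.77, and had a mean of 0.04 in undernourished cultures, with values from -0.15 to 0.33. The difference was -0.38 ± 0.13 (interval -0.65 to -0.10, adjusted p = 0.913).
In fatty acid oxidation and the carnitine shuttle 23 of 26 members were smaller in undernourished cultures (median difference -0.15, -0.10 without culture 9 and -0.06 with the array number as a covariate). Acot2, a mitochondrial acyl-CoA thioesterase, went the other way. Its responses were -0.41, 0.38 and 1.66 in control and 0.21, 1.76 and 2.43 in undernourished cultures, and 3 undernourished cultures (4, 9 and 12) lay above all controls. The difference was 1.00 ± 0.38 (interval 0.21 to 1.79, unadjusted p = 0.0167, adjusted p = 0.913), or 0.63 without cultures 9 and 12. Cpt1a, which admits fatty acids to mitochondria, fell in undernourished cultures (-0.44) and had a mean of -0.15 in control cultures. Its difference of -0.29 was -0.17 without culture 4 and -0.43 without cultures 9 and 12.
Glycolysis and glucose uptake had 9 of 21 members larger in undernourished cultures and a median difference of -0.01. Slc2a1, the basal glucose transporter, had means of -0.15 and 0.26 (interval of the difference 0.00 to 0.81), neither past the threshold, and the difference of 0.41 was 0.27 without culture 9 and 0.20 without cultures 9 and 12.

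**Figure D4:**
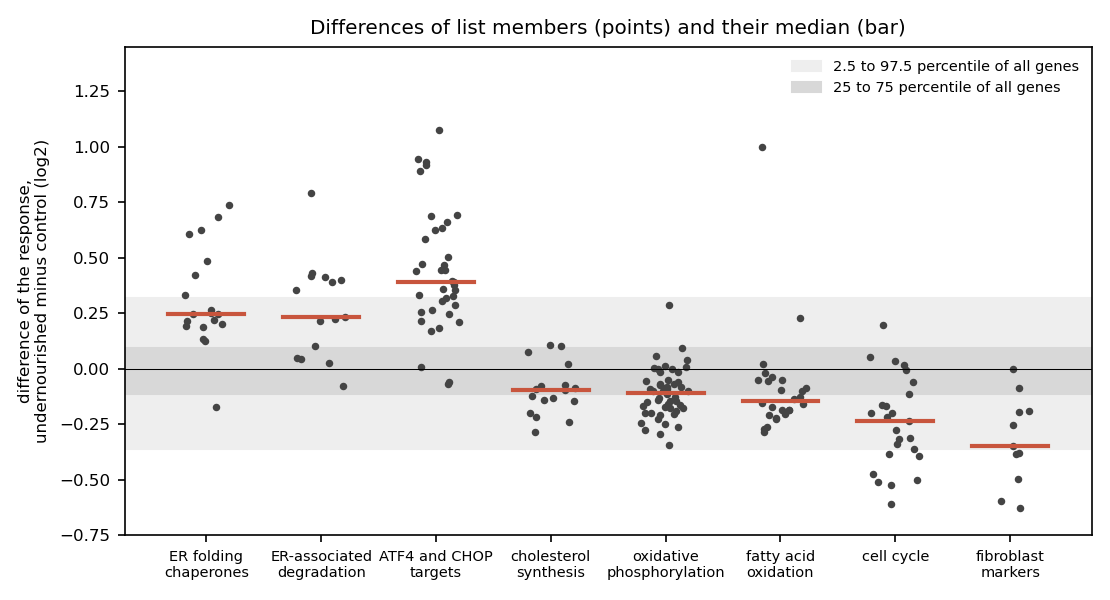
Difference of the response between diets (log2, undernourished minus control) for the members of 8 lists (points), with the list median (red bar), over bands holding the central 50% and 95% of all genes (-0.11 to 0.09 and -0.36 to 0.32). The medians of ATF4 and CHOP targets (0.39) and fibroblast markers (-0.35) lie farthest from zero.

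Imprinted genes, the contractile apparatus and the hypoxia response had no member with a called difference. Of 26 imprinted genes 6 fell in control and 4 in undernourished cultures, and 13 were larger in undernourished cultures. Zim1, an imprinted zinc finger gene, fell in control cultures by 0.44 with values from -0.83 to -0.15, and had a mean of -0.08 in undernourished cultures with values from -0.32 to 0.28 (difference 0.35, unadjusted p = 0.0201). The growth factor gene Igf2 had means of -0.07 and -0.04. Of 42 genes of the contractile apparatus 6 rose in control and 8 in undernourished cultures, with a median difference of 0.02. In 15 hypoxia response genes the median difference was 0.13, or 0.20 without culture 20 and 0.08 without control culture 10. Vegfa, the endothelial growth factor, had means of 0.04 and 0.62 (interval of the difference 0.05 to 1.10), and its difference of 0.57 was 0.32 without cultures 9 and 12. Among immediate early and serum response genes, Myc, a growth-promoting transcription factor, had responses of -0.34, -0.07 and 0.36 in control and -0.27, 0.93 and 1.23 in undernourished cultures. It rose in the undernourished cultures (adjusted p = 0.0258), and its difference was 0.73 ± 0.23 (unadjusted p = 0.00506, adjusted p = 0.913).
Single genes of other lists, named for the extreme t of their list, passed only an unadjusted p. An unadjusted p under 0.05 was found in 1 of 18 p53 targets, 1 of 17 clock genes and 2 of 14 genes of chromatin and DNA methylation. Over all genes the share was 5.17%. Sesn1, a p53 target that restrains growth signalling, had means of 0.36 and -0.13 (unadjusted p = 0.0138). The clock repressor Bhlhe41 fell in undernourished cultures by 0.48 and had a mean of -0.06 in control cultures. Dnmt1, the maintenance DNA methyltransferase, had means of 0.17 and -0.17, and the histone demethylase gene Kdm6b had -0.23 and 0.16.

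Cell cycle genes and fibroblast markers had smaller values in undernourished cultures, each resting in part on 1 culture. Of 25 cell cycle genes 21 were smaller in undernourished cultures (median difference -0.23). An unadjusted p under 0.05 was found in 4 of the 25, Cdk1, Rrm2, Mcm2 and Aurkb, against 5.17% of all genes. Cdk1, the mitotic kinase, had responses of -0.39 to 0.52 in control and -1.17 to 0.10 in undernourished cultures (difference -0.61, interval -1.04 to -0.18). The list mean was -1.27 in undernourished culture 4 and -0.48 in culture 20, against -0.21 to -0.00 in control cultures. Without culture 4 the median difference was -0.09 and 14 of 25 members were smaller, and without cultures 9 and 12 it was -0.40 with 25 of 25 smaller. Within a diet, Cdk6 fell in both and Ccnd1 fell in undernourished cultures, and the other 23 did not pass.
All 11 measured fibroblast markers had smaller response values in undernourished cultures, with a median difference of -0.35. One, the protease Fap, fell there (-0.61, adjusted p = 0.0222). The mean of the 11 per array ran from 5.64 to 7.29 in control standard, 5.67 to 7.70 in control limited, 5.61 to 7.57 in undernourished standard and 5.38 to 7.61 in undernourished limited arrays. Col1a1, a fibrillar collagen, had control responses of -0.61, 0.08 and 0.56 and undernourished responses of -1.94, -0.39 and -0.04, the lowest in culture 9. Its difference of -0.63 was -0.36 without culture 9 and -0.39 without cultures 9 and 12. The list mean was -0.96 in culture 9, the culture with the highest ATF4 list mean, and the median difference of the fibroblast markers was -0.21 without it, -0.21 without control culture 16 and -0.16 with the array number as a covariate. The part of these markers in the other lists' differences was not tested. The 12 satellite cell and myoblast markers had a median difference of -0.11, with 8 smaller, and -0.04 without culture 4. Their mean was lowest in cultures 4 (-0.32) and 9 (-0.25), against -0.09 to 0.12 in control cultures. The 15 myotube markers had a median difference of 0.02, and markers of endothelial cells, leukocytes, smooth muscle, adipocytes, glia and tenocytes between -0.06 and 0.04.

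Among genes no dimmer than the median, 12 in each direction were taken by their low p of the difference. None passed the threshold (adjusted p 0.912 to 0.913). Pon3, a lactonase that protects lipids from oxidation, had the smallest p of those with lower responses. Its responses were -0.19, -0.13 and 0.17 in control and -0.70, -0.59 and -0.46 in undernourished cultures. The diets did not overlap, as in 53 of all 22180 genes (0.239%), and the choice by a small p of this same difference favours such genes. Pon3 was lower in limited medium in 6 of 6 undernourished and 5 of 6 control cultures. Its level went from 7.41 ± 0.39 to 6.82 ± 0.34 in undernourished arrays and from 7.23 ± 0.19 to 7.15 ± 0.21 in control arrays, and the difference of responses was -0.51 ± 0.10 (interval -0.72 to -0.29, adjusted p = 0.912).
Mmp2, a collagen-degrading protease, was higher in limited medium in 6 of 6 control cultures (0.09 to 0.31) and lower in 6 of 6 undernourished cultures (-0.56 to -0.12), a difference of -0.50 ± 0.11. Its level itself varied far more between arrays, from 5.40 to 10.18 in the undernourished groups. The group medians of Mmp2 were 5.85 in undernourished standard and 5.56 in undernourished limited arrays, both below the median over all genes. In control arrays they were 6.04 and 6.18, just above it. The mean level of Mmp2, 6.46, by which it counted as no dimmer than the median, lay above every group median. Lsm3, an RNA-processing subunit, likewise did not overlap (0.05 to 0.62 and -0.53 to -0.02).
Hspe1 had responses of 0.08 to 0.51 in control and -0.80 to 0.11 in undernourished cultures, and only undernourished culture 9 fell within the control range. Scx, a tendon transcription factor, rose in control cultures by 0.74 (adjusted p = 0.00213) and had a mean of 0.19 in undernourished cultures, a difference of -0.55 ± 0.14. Ptgr1, a prostaglandin reductase, and Wnt10a, a secreted signalling protein, also rose in control cultures (0.48 and 0.43), with means of -0.13 and -0.05 in undernourished cultures. Lix1 had means of 0.17 and -0.68, the widest gap among these 12. The tubulin gene Tubb2a, the deubiquitinase gene Usp46, the cyclophilin gene Ppie and Commd6 had differences of -0.44 to -0.55.

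In the other direction Cdsn, an adhesion protein known from skin, had the smallest p. Its control responses were -0.77, -0.27 and 0.18 and its undernourished responses -0.05, 1.07 and 1.58. Culture 8 alone lay among the controls, and the difference was 1.11 ± 0.24 (interval 0.59 to 1.63, unadjusted p = 0.000299), or 0.84 without cultures 9 and 12. Tapbpl, a peptide editor of class I antigen presentation, gave responses of -0.16, 0.17 and 0.30 in control and 0.34, 0.69 and 1.20 in undernourished cultures, with no overlap. It rose in undernourished cultures (1.64-fold, adjusted p = 0.00204), and the difference was 0.58 ± 0.15. Gtpbp2, a GTPase that rescues stalled ribosomes, rose in undernourished cultures by 0.64 (0.10 to 1.09) and had a mean of 0.10 in control cultures (-0.09 to 0.25). Zfp598, a sensor of collided ribosomes, had means of 0.35 and 0.79.
Slc38a9, a lysosomal amino acid sensor, fell in control cultures by 0.39 and had a mean of 0.08 in undernourished cultures. Resf1 and Zfp608 showed the same order, falling in control cultures by 0.52 and by 0.39, with means of -0.04 and 0.16 in undernourished cultures. Tbx6, a mesoderm transcription factor, did not overlap between diets (-0.51 to -0.04 and -0.03 to 0.17). Its highest control and lowest undernourished values lay next to each other. The mean level of Tbx6, 6.04, was close to the median over all genes (6.02), and its response passed the threshold in neither diet. Dusp12, Sh2d6, Isg20 and Npc1l1 had differences of 0.38 to 0.93, and that of Dusp12, 0.93, was 0.62 without cultures 9 and 12.

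**Figure D5:**
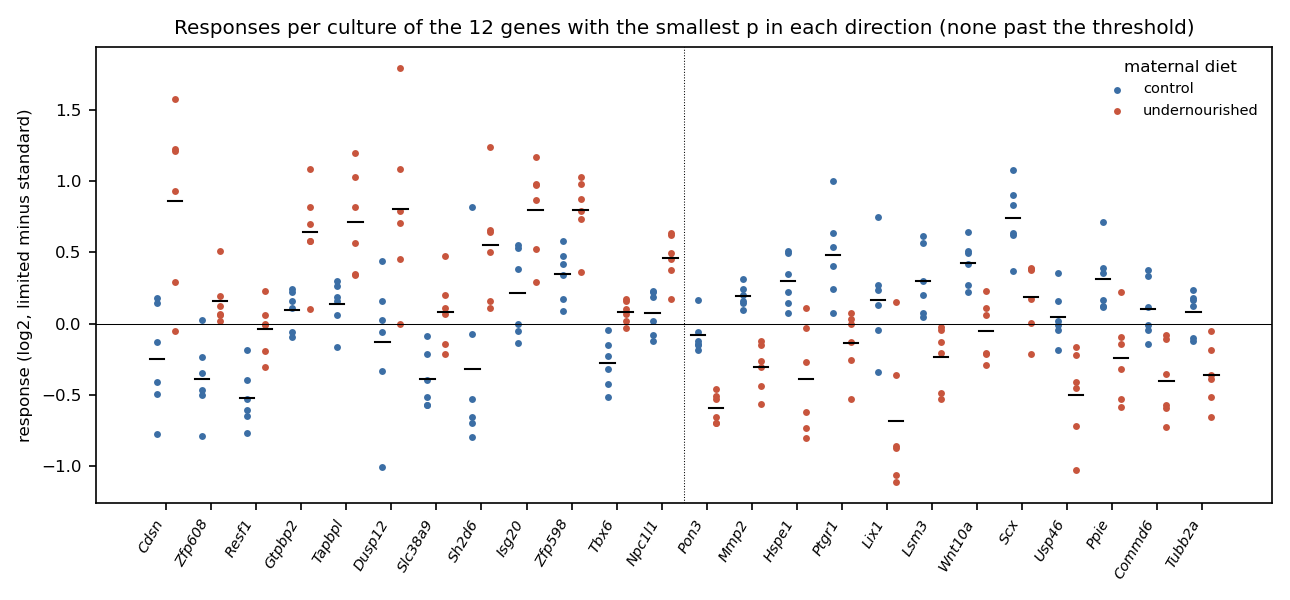
Responses (log2, limited minus standard medium) of single cultures (points) and their means (bars) in control (blue) and undernourished (red) cultures for the 12 genes with the smallest p and a larger response value in undernourished cultures (left of the dotted line) and the 12 with a smaller one (right). Tapbpl, Tbx6, Pon3, Mmp2 and Lsm3 do not overlap between diets, as 0.239% of all genes do not, and no gene passed the threshold.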

How the data were processed

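RNA extracted with Trizol was labelled by the biotin WT PLUS procedure and measured on 1 single-colour array per sample, per the labels' protocols. The deposited values were made with RMA in Affymetrix Expression Console, per the submitters' processing notes. The sources used here give no tool version or genome build. The authors' deposited table was read as log2 signal (1.69 to 14.13), the base of the logarithm being unstated. Of 41345 probe sets (transcript clusters), 23521 had exactly 1 symbol, 1814 several and 16010 are unnamed here; 23328 were matched to RefSeq (GRCm38.p6) by Entrez identifier. For 1082 genes with several clusters the one with the highest mean over 24 arrays was used, leaving 22180 genes, unfiltered. The number of arrays limits the precision.

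Responses (limited minus standard array of a culture number) were fitted with limma 3.58.1 (R 4.3.3; lmFit, eBayes) as 6 control and 6 undernourished means with a shared spread. All tests were two-sided, and p-values were adjusted by Benjamini-Hochberg over all genes. The fit was tested on simulated data. Exact permutation tests used SciPy 1.17.1. The members, the 38 lists (687 of 736 entries measured) and the tests were chosen with earlier results of these data known. No list was tested as a set. Genes named: the 12 smallest p per direction, the 10 largest mean rises and falls over both diets, all at or above the median level, and each list's largest and smallest t. Of the symbols of models, clones, small RNAs and receptor families, 1 was passed over among the higher responses. Alternatives: other treatment of the culture number, leaving out cultures, scaling, dim genes, eBayes options, culture weights, the array number, cluster choice and thresholds.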

Additional observations from a re-analysis of the deposited data

Results flagged for a closer look

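Among 232 groups of 6 values tested (228 of responses of named genes and 4 of the size of the response per culture), 15, all of named genes, held 1 culture farther from the others than Dixon's 95% critical value allows, where chance gives about 1 in 20. Culture 9 held 4 of them and culture 12 held 3, and these are the cultures whose arrays did not deviate together. A response is the difference of those same arrays, so the flags and the weak pairing are not separate observations. In culture 9 the response of Gjd4 was -2.97 (other undernourished cultures -1.49 to -0.66), of Gadd45g 0.13 (others -1.52 to -1.03), of the collagen gene Col1a1 -1.94 (others -0.52 to -0.04) and of the macrophage marker Cd68 0.96 (others -0.15 to 0.16). In culture 12 the response of Kdm6b was -0.23 (others 0.13 to 0.32), of the ribosome assembly gene Bysl 0.40 (others 0.19 to 0.24) and of the muscle transcription factor gene Tead4 -0.14 (others 0.20 to 0.35). In the other undernourished cultures, Zfp608 stood at 0.51 in culture 1 (others 0.02 to 0.19) and Fads1 at -1.27 in culture 4 (others -0.69 to -0.49).

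Among control cultures, Gadd45g stood at -0.45 in culture 5 (others -1.24 to -0.99) and Bysl at 0.82 in the same culture (others 0.21 to 0.43). In culture 16 Dnmt1 stood at 0.45 (others 0.05 to 0.15) and the endothelial adhesion gene Esam at 0.40 (others -0.06 to 0.06). Pon3 was 0.17 in culture 11 (others -0.19 to -0.06), the only control culture in which it was higher in limited medium. Slc38a6 was -1.54 in culture 15 (others -0.84 to -0.50).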

How the results depend on the processing

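The count of genes whose response differed between diets was 0 in limma under every alternative run, against 1147 at an unadjusted p under 0.05 in the fit reported. The counts of responding genes moved. With culture numbers ignored (no replicate block), 76 genes responded in control and 324 in undernourished cultures, against 551 and 1007 with the block. The numbers did not meet the pairing criterion: own-number arrays deviated together in 10 of 12 cultures, and 9 standard and 10 limited arrays correlated best with their own number. The block changed no call of the difference. Leaving out single cultures gave 110 to 806 genes in control cultures (121, 121, 125 and 110 without control culture 5, 15, 11 or 10) and 412 to 1025 in undernourished cultures (412, 567 and 664 without undernourished culture 4, 1 or 12). Without cultures 9 and 12, chosen after seeing the data, the counts were 897 and 478. Centring arrays gave 852 genes in control and 864 in undernourished cultures, genes at or above the median level 842 and 1348, and culture weights 983 and 1105. An adjusted p under 0.1 gave 1227 and 1715, and a response of at least 0.5 gave 239 and 428. For 114 named genes, 57 of 2622 values under alternatives had another sign, in 18 genes, and none passed the threshold (adjusted p 0.213 to 1.00). Of 682 list values 5 moved by more than 1 SD of the cultures. The median 95% half-width of a gene's difference, 0.293, sets what these 12 responses can resolve. The array number tended to be higher in undernourished cultures, so as a covariate it shares part of the comparison.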
